A study of Mus musculus with 40 samples.

Results

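The data cover 41 genes of the cell cycle and of cell proliferation in the mouse kidney after repeated oral exposure to TCDD, a dioxin that activates the aryl hydrocarbon receptor (AhR). The genes are a fixed list of symbols matched to Ensembl mouse identifiers, and all 41 were found among the 55359 identifiers counted. They hold 5 regulators grouped under the step from G1 to S phase and 11 genes of DNA replication and nucleotide supply. There are also 8 mitotic kinases, cyclins and a partner, and 7 genes of mitotic chromosomes and kinetochores. The rest are 8 genes of the spindle and cytokinesis, and 2 of the anaphase-promoting complex (APC/C). RNA was sequenced from the right kidney of 40 male C57BL/6 mice, 1 library per mouse, in 8 groups of 5. One group was gavaged with sesame oil, the vehicle, and the other 7 with TCDD at 0.03, 0.1, 0.3, 1, 3, 10 or 30 µg/kg. Every group was gavaged every 4 days for 28 days, from day 30 to day 58 of age, so all groups share the handling and the oil. The samples were pieces of whole kidney, so each value mixes all cell types of that piece, and fewer cells of a type cannot be told apart from less RNA per cell.

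A cell that divides passes from G1 into S phase, copies its DNA, and then separates the copies in mitosis. Cyclin E, encoded by Ccne1 and Ccne2, and the E2F factors act at the entry into S phase. The MCM2-7 helicase opens the DNA, PCNA is the clamp that holds polymerases on it, and ribonucleotide reductase and thymidylate synthase supply its building blocks. Cyclin B with CDK1, the Polo and Aurora kinases, and the APC/C drive mitosis and its exit. Most tubule cells of a healthy adult kidney are at rest, and these transcripts are the usual RNA readout of how much division a tissue holds.

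Because many mitotic genes share promoter elements, the promoters of 4 genes that the results turn on are shown first. They are Mki67, which encodes the Ki-67 antigen of dividing cells, Top2a, the DNA topoisomerase of mitotic chromosomes, Cenpe, a kinetochore motor, and Mcm3, a subunit of the replicative helicase. Each line gives the 200 bases before the RefSeq start of the gene on GRCm38.p6, read 5′ to 3′ on the gene's strand. Capitals mark the cell cycle homology element (TTTGAA, or TTCAAA on the other strand) and the CCAAT box (CCAAT, or ATTGG on the other strand).
Mki67, chr7:135716380-135716579, minus strand: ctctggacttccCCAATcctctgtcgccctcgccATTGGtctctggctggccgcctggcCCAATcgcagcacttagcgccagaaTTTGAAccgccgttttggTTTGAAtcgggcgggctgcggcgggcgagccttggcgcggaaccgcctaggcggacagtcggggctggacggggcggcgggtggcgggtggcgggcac
Top2a, chr11:99024190-99024389, minus strand: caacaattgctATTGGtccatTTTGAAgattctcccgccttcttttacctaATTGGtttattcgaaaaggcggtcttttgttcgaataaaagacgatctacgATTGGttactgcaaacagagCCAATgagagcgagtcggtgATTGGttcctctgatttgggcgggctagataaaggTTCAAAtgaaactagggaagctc
Cenpe, chr3:135212363-135212562, plus strand: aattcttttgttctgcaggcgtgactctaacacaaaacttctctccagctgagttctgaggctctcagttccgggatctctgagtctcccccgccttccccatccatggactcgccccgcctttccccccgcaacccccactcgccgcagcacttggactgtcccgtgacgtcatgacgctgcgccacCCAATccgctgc
Mcm3, chr1:20820313-20820512, minus strand: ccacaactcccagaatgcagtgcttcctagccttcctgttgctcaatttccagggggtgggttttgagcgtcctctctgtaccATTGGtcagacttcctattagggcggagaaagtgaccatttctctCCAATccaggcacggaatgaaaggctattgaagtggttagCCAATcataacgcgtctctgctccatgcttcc
The Mki67 and Top2a windows each hold the cell cycle homology element, whereas the Cenpe and Mcm3 windows hold CCAAT boxes without it. RefSeq promoters of 300 bases, from 250 before to 50 after the start, were matched for 33 of the 41 genes, with 36 promoters in all. The cell cycle homology letters stood on either strand in 20 of these 36 promoters (55.6%), against 17.9% of all 32851 promoters of the same length. They stood in 18 of 23 promoters of mitotic genes (78.3%) and in 1 of 10 of replication genes. CCAAT or ATTGG stood in 31 of 36 (86.1%), against 37.4% of all promoters. The E2F letters TTTGGCGC, or GCGCCAAA on the other strand, stood in the promoters of Mcm3, Mcm5 and Mcm6 (8.33% of the 36, against 0.514% of all). No other form of the E2F letters was searched, so promoters without this word may hold another form. The AhR core letters GCGTG, or CACGC on the other strand, stood in 22 of 36 (61.1%), against 32.4% of all. No searched word contains another, although their ends can share letters, and a match of letters is not a measured binding site.

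Gene counts summed to 15278423 to 25575317 per library. Cyp1a1, the main AhR target, checked the exposure: its mean rose from 2.37 ± 1.25 CPM (gene counts scaled by library size) with vehicle to 2537 ± 436 CPM at 30 µg/kg (SD, n = 5 each), and it was called from 0.3 µg/kg upward. The first library of the 0.03 µg/kg group (578) and the fourth of the 1 µg/kg group (620) stood apart in the summed CPM of 5 markers of the adrenal cortex, the outer layer of a gland next to the kidney, against group medians of 4.41 to 5.88. Replicate 2 at 3 µg/kg stood at 34.6, under the limit of 100 used here, and was kept. Leaving both of these libraries out gave the same called genes of the list, Cenpe at 30 µg/kg and Mcm3 in the trend over dose.

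The 41 transcripts were scarce in the vehicle kidneys, with 11 under 1 CPM, 24 from 1 to 10 CPM and 6 at 10 CPM or more. Per kilobase of exon, the 10 highest were all replication genes. Pcna led with 16.0 ± 0.29 CPM per kb (SD, n = 5), followed by Mcm6 (6.30), Mcm7 (5.02) and Tyms (2.34), the thymidylate synthase. Ccnb2, the highest mitotic gene, stood at 1.02 CPM per kb. Mki67 stood at 0.371 and Top2a at 0.305 CPM per kb. The lowest were Exo1, a DNA exonuclease (0.0209), E2f8, a repressor of the E2F family (0.0409), and Bub1, a checkpoint kinase (0.0530). Over all 40 libraries the coefficient of variation was 7.13% for Pcna and 93.1% for Ttk, a spindle checkpoint kinase with 0 counts in 9 libraries. Exonic bases are shared with other genes in 12 of the 41, up to 29.3% in Kif20a, and strand was not used in counting. Reads on shared bases can be ambiguous, and ambiguous reads stayed out of the gene counts. The values per kilobase use the full exon length, so they can be too low for such genes.

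All 41 genes passed the filter on low counts. A gene was called where its adjusted p was under 0.05 in edgeR's quasi-likelihood test, adjusted after Benjamini and Hochberg over 17345 genes. Of the 41 genes, 0 were called at 0.03, 0.1, 0.3, 1, 3 and 10 µg/kg, and 1, Cenpe, was called lower at 30 µg/kg. Among all genes tested, the share called from the lowest to the highest dose was 0%, 0%, 0.00577%, 0.513%, 1.09%, 4.82% and 15.9%. DESeq2 also called 0 of the 41 at the 6 lower doses and Cenpe alone at 30 µg/kg. It gave an adjusted p to only 38 of them at 3 µg/kg and 37 at 10 µg/kg, and the others could not be called. At an unadjusted p under 0.05, the number from the lowest to the highest dose was 2, 1, 1, 4, 7, 3 and 2 of 41. The share of all genes at that level was 5.67%, 5.53%, 5.23%, 7.1%, 8.95%, 15.7% and 27.6%. At no dose did all 5 libraries of any of the 41 genes lie above every vehicle library, or all 5 below. The same count was not made over all genes tested, so it has no background share to be read against.

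From the lowest to the highest dose, the median log2 fold change of the 41 genes against vehicle was 0.23, 0.00, 0.16, 0.24, 0.28, 0.02 and 0.09. With each library of the 2 groups left out in turn, the median of the 41 genes ran from 0.14 to 0.30 at 0.03 µg/kg, from -0.03 to 0.03 at 0.1, from 0.04 to 0.19 at 0.3, from 0.18 to 0.33 at 1, from 0.18 to 0.31 at 3, from -0.0088 to 0.16 at 10 and from 0.04 to 0.16 at 30 µg/kg. The median moved by over 1.5 times with single libraries at every dose except 1 µg/kg. At 0.03 µg/kg it was 0.14 without replicate 1 and 0.15 without vehicle replicate 1, and at 3 µg/kg 0.18 without replicate 5. At 0.3 µg/kg it was 0.04 without replicate 2, 0.05 without replicate 5, and 0.09 and 0.07 without vehicle replicate 1 or 2. At 30 µg/kg it was 0.04 without replicate 2, 0.05 without replicate 5, 0.14 without replicate 3 and 0.16 without vehicle replicate 3. The median of all genes tested lay between -0.0055 and 0.011 at these doses. Positive fold changes numbered 33, 21, 29, 31, 31, 24 and 26 of 41 in the same order, and all genes split near evenly, with 8470 to 9029 of 17345 positive. All 7 comparisons share the same 5 vehicle libraries, so these counts are not independent of each other. The 41 genes are not independent either. In single vehicle libraries, 13 to 29 of them lay above the vehicle mean in log2(CPM + 0.1), so the genes are not replicates of a dose.

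**Figure D1:**
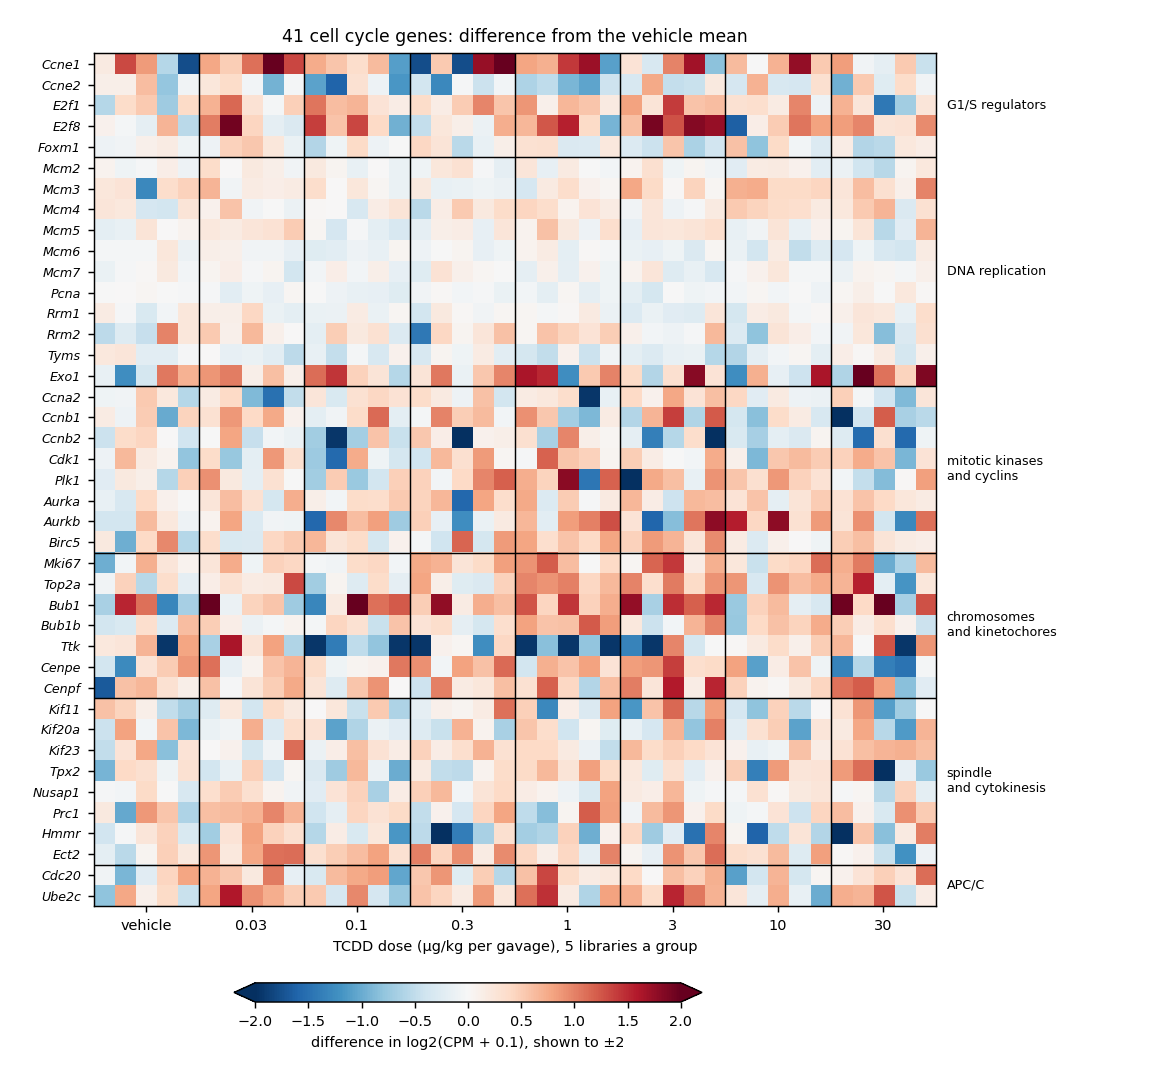
Difference of each of the 41 genes (rows, grouped by role) from its vehicle mean in each of the 40 libraries (columns, grouped by dose in µg/kg), in log2(CPM + 0.1), with red above and blue below the vehicle mean. Replication genes from Mcm2 to Tyms stay pale in most libraries, while scarce genes such as Exo1, Bub1 and Ttk vary widely between libraries.

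The 5 genes grouped under S phase entry showed no called change at any dose, and their median log2 fold change at 30 µg/kg was -0.08. The group includes Foxm1 and the repressor E2f8, so its median is not a measure of S phase entry. E2f1, the activating E2F, had CPM of 1.67, 3.29, 3.67, 1.51 and 3.34 in the vehicle libraries and 4.15, 3.00, 0.88, 1.52 and 3.02 at 30 µg/kg. The ranges overlap, and the third library at 30 µg/kg is the lowest of the 10. Its log2 fold change was -0.10 (95% interval -0.70 to 0.50, adjusted p = 0.876). Foxm1, the transcription factor that drives mitotic genes, had 1.79, 1.82, 2.07, 2.17 and 1.81 CPM with vehicle and 2.16, 1.24, 1.29, 2.25 and 2.14 CPM at 30 µg/kg. Its interval ran from -0.64 to 0.47 (log2), around an estimate of -0.08.

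Among the cyclins E, Ccne2 had 2.02, 2.03, 2.89, 1.05 and 1.76 CPM with vehicle. At 30 µg/kg it had 0.91, 2.71, 1.56, 2.41 and 1.76 CPM, within almost the same range. Ccne1 was near the detection limit, at 0.29, 0.76, 0.52, 0.13 and 0 CPM with vehicle and 0.51, 0.23, 0.20, 0.39 and 0.15 CPM at 30 µg/kg. The interval of Ccne1 spans -1.83 to 1.36 on the log2 scale, so only a large change could have been seen at this depth. E2f8 had its largest value at 3 µg/kg, a log2 fold change of 1.84 ± 0.64 (SE), with an adjusted p of 0.228, and had 0.87 at 30 µg/kg (adjusted p = 0.423).

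The 11 replication genes include the most precisely measured of the list, and none was called at any single dose. Pcna had 38.1, 38.7, 39.5, 38.3 and 37.6 CPM in the vehicle libraries and 39.5, 41.7, 38.2, 44.3 and 39.2 CPM at 30 µg/kg. The treated values lie a little higher and still overlap, with a log2 fold change of 0.08 (95% interval -0.06 to 0.22, adjusted p = 0.499). Mcm2 had 14.6, 13.2, 13.7, 15.3 and 13.0 CPM with vehicle and 12.8, 10.6, 9.42, 14.5 and 16.1 CPM at 30 µg/kg. The treated libraries of Mcm2 spread on both sides of the vehicle range (log2 fold change -0.13, interval -0.39 to 0.12).

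Mcm5, another subunit of the helicase, had 4.84, 4.96, 6.65, 5.59 and 5.84 CPM with vehicle and 5.74, 6.67, 3.73, 4.72 and 8.90 CPM at 30 µg/kg (interval -0.24 to 0.45). Rrm2, the regulated subunit of ribonucleotide reductase, had 2.77, 3.34, 2.89, 8.09 and 4.70 CPM with vehicle, and the fourth library stood above the rest. At 30 µg/kg Rrm2 had 3.81, 4.69, 2.17, 3.26 and 5.00 CPM, within the vehicle range except for the third library. The intervals of Mcm6 (-0.38 to 0.03), Mcm7 (-0.20 to 0.22), Mcm4 (-0.04 to 0.64), Tyms (-0.26 to 0.29) and Rrm1 (-0.09 to 0.40) all include 0. Exo1 had the largest fold change of the 41 at 30 µg/kg, 1.43 on the log2 scale, and it was not called (adjusted p = 0.237). Its CPM were 0.12, 0, 0.09, 0.39 and 0.28 with vehicle and 0.06, 0.85, 0.41, 0.22 and 0.76 at 30 µg/kg, which overlap.

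Mcm3 was the only one of the 41 genes called in the trend over dose rank (0 for vehicle to 7 for 30 µg/kg), in which 19.8% of all genes tested were called, 11% higher and 8.84% lower. At 30 µg/kg alone its log2 fold change was 0.40 (interval -0.03 to 0.82, adjusted p = 0.219). Over dose rank it rose by 0.062 ± 0.023 (SE) log2 units per rank (edgeR, adjusted p = 0.0464). Its CPM were 5.24, 5.42, 1.77, 5.72 and 6.18 with vehicle, 7.43, 7.54, 5.89, 5.88 and 6.09 at 10 µg/kg, and 5.34, 6.90, 5.63, 4.83 and 8.98 at 30 µg/kg. The third vehicle library lies below all other 39 libraries, and the remaining 4 vehicle libraries overlap with both high-dose groups. Without that vehicle library the adjusted p was 0.106. The call was also lost without replicate 2 (0.0760), 3 (0.0512) or 5 (0.143) at 30 µg/kg, with no filter on low counts (0.0598), without the 30 µg/kg group (0.230), and in 1 stranded count column (0.299). That column holds 50.4 to 51.0% of the stranded counts of each library, so it separates no strands and tests fewer reads. At an unadjusted p under 0.05, 4 genes had a positive slope over dose rank (Mcm3, Mcm4, Top2a and Aurkb) and 1 a negative one (Mcm6), which is 5 of 41, against 30.8% of all genes.

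The 8 mitotic kinases, cyclins and partners held no called gene at any dose, and their median log2 fold change was 0.40 at 3 µg/kg and 0.09 at 30 µg/kg. Cdk1, the kinase that starts mitosis, had 1.15, 2.03, 1.43, 1.31 and 0.68 CPM with vehicle and 1.76, 2.15, 1.90, 0.62 and 1.53 CPM at 30 µg/kg. Its fold change had an interval from -0.51 to 1.03 (log2). Ccnb1, the cyclin that activates it, had 0.86, 0.71, 1.12, 0.33 and 1.08 CPM with vehicle and 0.11, 0.57, 1.90, 0.45 and 0.50 CPM at 30 µg/kg. The third treated library of Ccnb1 lies above every vehicle library and the first lies below every one.

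Ccnb2, another mitotic cyclin, had 1.09, 1.98, 2.07, 1.51 and 1.13 CPM with vehicle and 1.25, 0.45, 1.90, 0.45 and 1.41 CPM at 30 µg/kg. Its log2 fold change of -0.52 (interval -1.44 to 0.40) was the lowest after that of Cenpe. Aurkb, the kinase of the chromosomal passenger complex, had a log2 fold change of 1.16 at 10 µg/kg (adjusted p = 0.284) and of 0.37 at 30 µg/kg. Aurka, Plk1, Ccna2 and Birc5 had log2 fold changes between -0.09 and 0.33 at 30 µg/kg, with every interval across 0.

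The 7 genes of chromosomes and kinetochores had the highest median of the 6 roles at 3 µg/kg, a log2 fold change of 0.70 with 0 called. Their median at 30 µg/kg was 0.28. Mki67 had 1.73, 3.34, 5.79, 4.14 and 3.68 CPM with vehicle, 3.59, 7.95, 9.45, 3.88 and 5.79 CPM at 3 µg/kg and 5.85, 7.24, 1.70, 2.25 and 5.46 CPM at 30 µg/kg. At 3 µg/kg replicates 2, 3 and 5 exceed every vehicle library, replicate 5 only narrowly (5.794 CPM, against 5.788 in vehicle replicate 3). At 30 µg/kg replicates 1 and 2 exceed every vehicle library, while replicate 3 lies below all of them. The log2 fold change was 0.70 at 3 µg/kg (interval 0.07 to 1.33, adjusted p = 0.470) and 0.27 at 30 µg/kg (interval -0.36 to 0.90, adjusted p = 0.640).

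Top2a had 2.54, 3.70, 1.77, 3.42 and 2.32 CPM with vehicle, and 5.31, 5.04, 5.45, 3.57 and 4.23 CPM at 1 µg/kg. It had 5.38, 3.39, 5.54, 3.48 and 5.05 CPM at 3 µg/kg and 4.32, 7.97, 2.31, 1.12 and 3.13 CPM at 30 µg/kg. Most libraries at 1 and 3 µg/kg exceed the vehicle range, and at 30 µg/kg the 5 libraries scatter from below to above it. The log2 fold changes were 0.79 at 1 µg/kg (adjusted p = 0.528), 0.74 at 3 µg/kg (adjusted p = 0.434) and 0.46 at 30 µg/kg (adjusted p = 0.371). Mki67 and Top2a, the 2 genes shown above with the cell cycle homology letters in their promoters, passed the adjusted test at none of the doses. In the trend over dose rank the adjusted p was 0.345 for Mki67 and 0.113 for Top2a.

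Cenpe fell at 30 µg/kg, from 1.97 ± 1.00 to 0.92 ± 0.48 CPM (SD, n = 5 each). Its CPM were 1.33, 0.66, 2.12, 2.50 and 3.23 with vehicle and 0.62, 1.13, 0.61, 0.56 and 1.68 at 30 µg/kg. The second vehicle library is as low as the treated ones, so the groups overlap. The log2 fold change was -1.04 ± 0.38 (SE) with an adjusted p of 0.0496, just inside the threshold, where 7.55% of all genes were called lower. The call was lost when any 1 of 7 libraries was left out. The adjusted p was then 0.0917, 0.112 and 0.180 without vehicle replicate 3, 4 or 5, and 0.0989, 0.0515, 0.11 and 0.143 without replicate 1, 2, 3 or 4 at 30 µg/kg. With no filter it was 0.0544, and in the 10 libraries alone 0.191. At 10 µg/kg Cenpe had 3.09, 0.77, 1.93, 2.63 and 1.62 CPM, and the mean of 2.01 CPM was close to that of vehicle.

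The checkpoint genes of the same role were not called. Bub1 had 0.06, 0.61, 0.43, 0 and 0.06 CPM with vehicle and 0.85, 0.23, 0.95, 0.06 and 0.50 CPM at 30 µg/kg (log2 fold change 1.06, interval -0.48 to 2.60). Bub1b had a log2 fold change of 0.80 at 1 µg/kg (adjusted p = 0.461) and 0.09 at 30 µg/kg. Ttk had log2 fold changes of -2.32 at 0.1 µg/kg and -2.79 at 1 µg/kg, with adjusted p of 0.884 and 0.381, from libraries at 0 to 0.57 CPM, so depth limits them. Cenpf, another kinetochore protein, had log2 fold changes of 0.89 at 3 µg/kg (adjusted p = 0.508) and 0.42 at 30 µg/kg (adjusted p = 0.575).

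**Figure D2:**
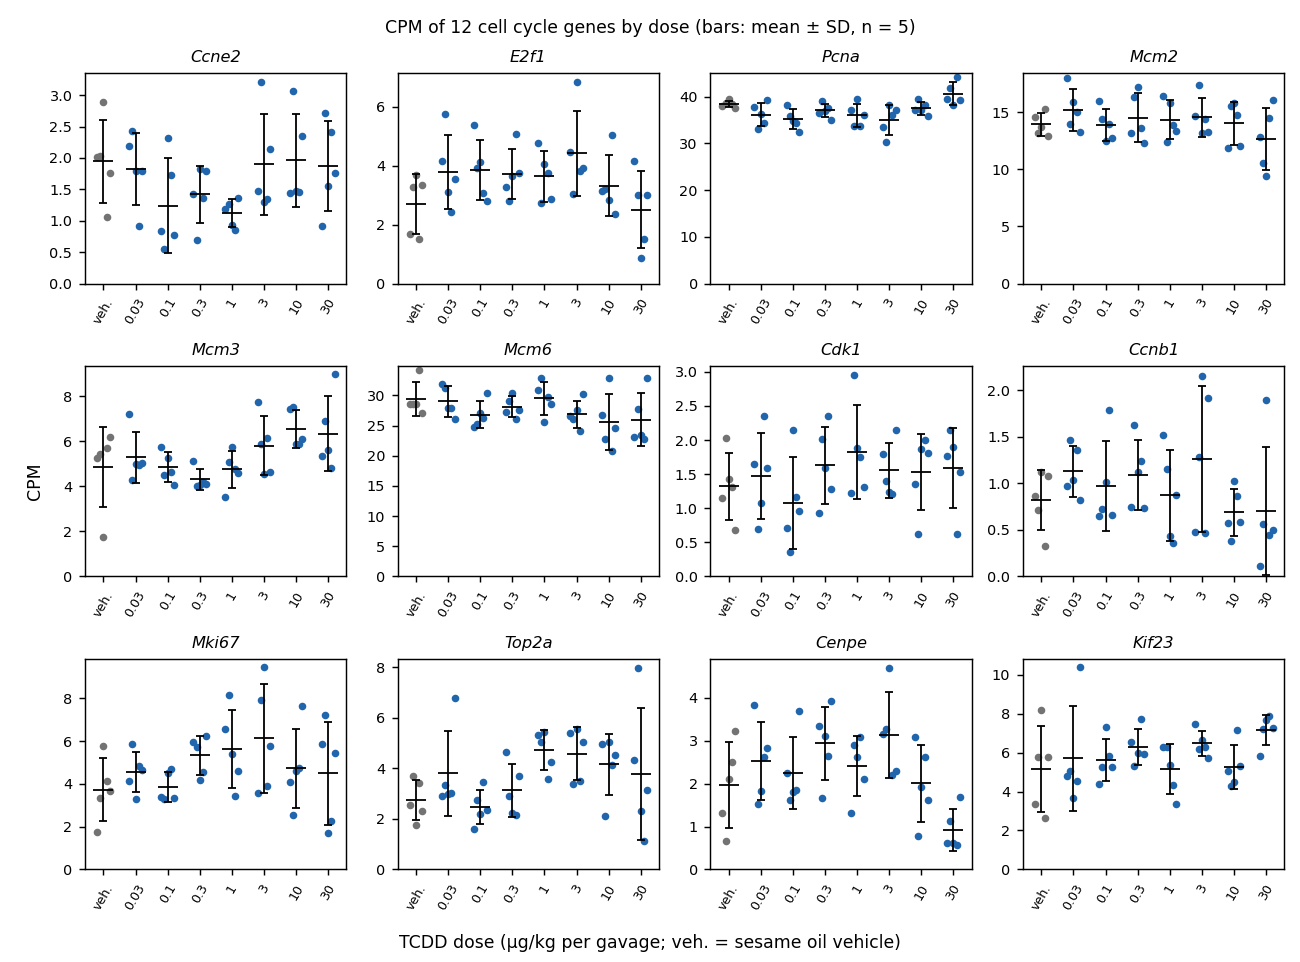
CPM of 12 of the genes (1 panel each, vertical axis from 0) in every library by TCDD dose in µg/kg, with bars for mean ± SD of 5 libraries. Pcna and Mcm2 are nearly level, Mki67 and Top2a scatter widely at 30 µg/kg, and Cenpe is lowest at 30 µg/kg.

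The 8 spindle and cytokinesis genes and the 2 APC/C genes held no called gene at any dose. Kif23, a motor of the central spindle, had 2.63 to 8.21 CPM with vehicle and 5.85 to 7.86 CPM at 30 µg/kg. All treated libraries lie within the vehicle range (log2 fold change 0.47, interval 0.00 to 0.93, adjusted p = 0.177). Ect2, the exchange factor that starts cytokinesis, had its largest log2 fold change at the lowest dose, 0.84 at 0.03 µg/kg (adjusted p = 0.846), and -0.30 at 30 µg/kg. Ube2c, the ubiquitin-conjugating enzyme of the APC/C, had a log2 fold change of 0.88 at 3 µg/kg (adjusted p = 0.495) and 0.50 at 30 µg/kg. Cdc20, its activator, had 0.42 at 30 µg/kg (interval -0.31 to 1.16). Kif11, Kif20a, Tpx2, Nusap1, Prc1 and Hmmr had log2 fold changes between -0.04 and 0.28 at 30 µg/kg.

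**Figure D3:**
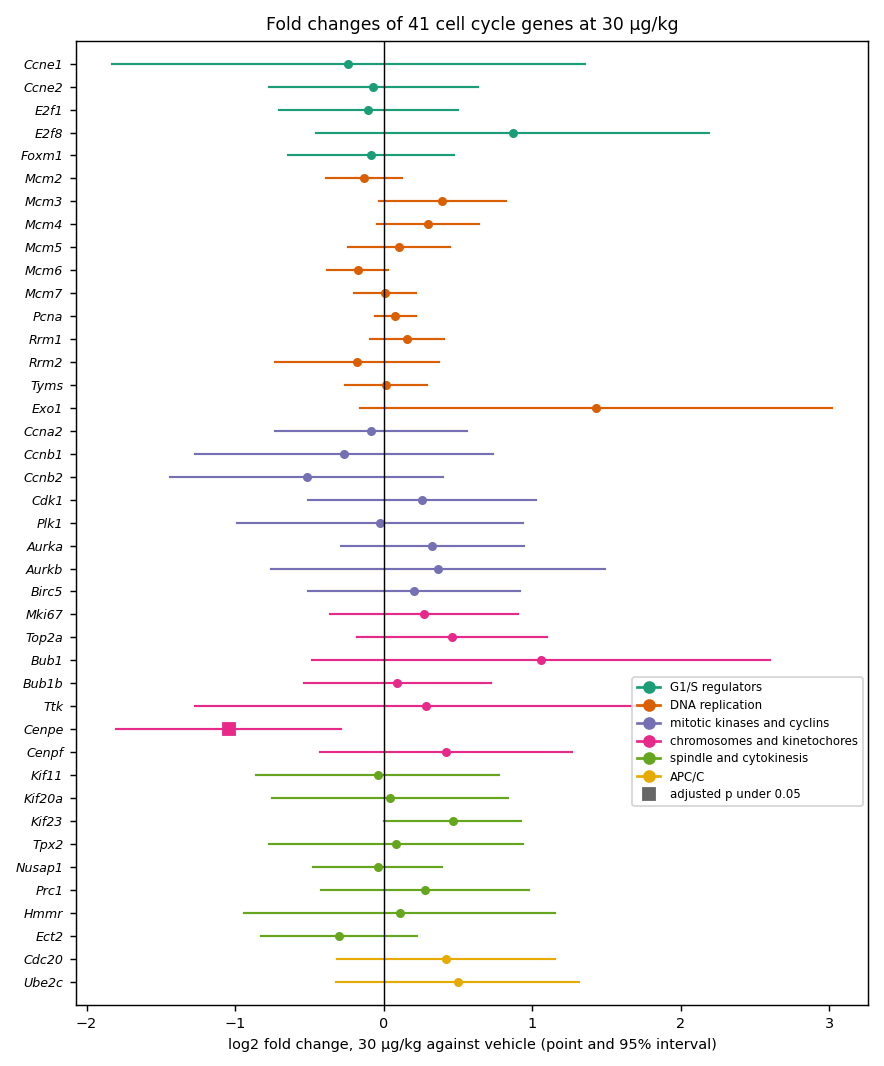
Log2 fold change at 30 µg/kg against vehicle for the 41 genes (points; lines are 95% intervals from the edgeR fit; colour gives the role). Cenpe (square) is the only gene with an adjusted p under 0.05, and the intervals are short for Pcna, Mcm6 and Mcm7 and long for Ccne1, Ttk, Bub1 and Exo1.

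Libraries of the same group differed in the level of the whole list. The median of the 25 mitotic genes, as the difference from the vehicle mean in log2(CPM + 0.1), ran from -0.23 to 0.38 over the vehicle libraries, from 0.14 to 0.74 at 3 µg/kg and from -0.65 to 0.56 at 30 µg/kg. Replicates 3 and 5 at 3 µg/kg were the 2 highest of all 40 in the median of the 41 genes, at 0.55 and 0.61. Replicates 3 and 4 at 30 µg/kg were the 2 lowest, at -0.18 and -0.23, whereas the other 3 of that group stood at 0.21 to 0.26. Replicate 4 was the lowest of its group for 12 of the 25 mitotic genes, and replicate 2 was the highest for 10 of them and the lowest for 0. The 11 replication genes varied less, from -0.14 to 0.31 at 30 µg/kg.

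**Figure D4:**
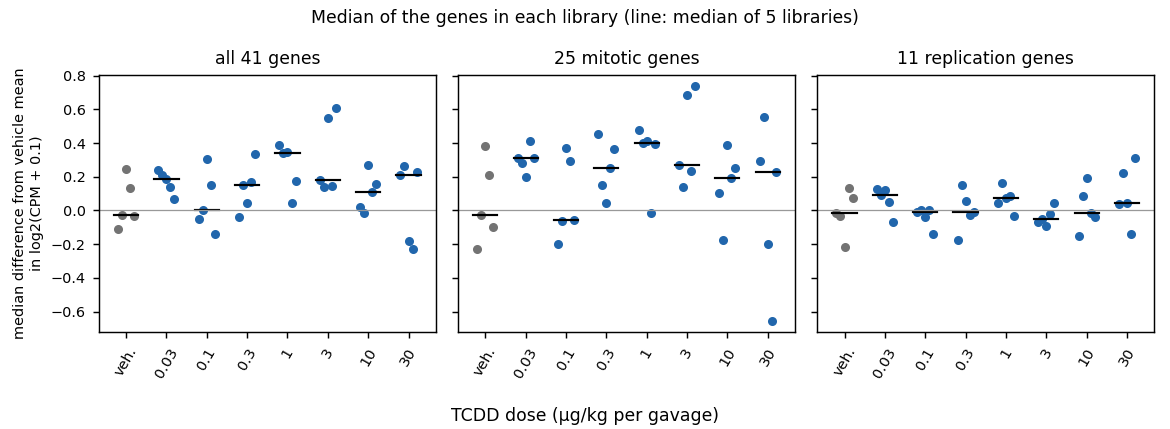
Median difference from the vehicle mean, in log2(CPM + 0.1), over all 41 genes, the 25 mitotic genes and the 11 replication genes in each library by dose in µg/kg (lines are medians of 5 libraries). Mitotic genes spread widest at 30 µg/kg, from -0.65 to 0.56, and replication genes stay near 0 at every dose.

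Markers of several cell types differed between the groups. The summed CPM of 12 macrophage markers ran from 94.6 to 154 with vehicle, 219 to 271 at 10 µg/kg and 193 to 261 at 30 µg/kg, with 10 of 12 called higher at 30 µg/kg. Of 8 endothelial markers, 6 were called higher at 30 µg/kg. Of 14 lymphocyte markers, 12 were tested and 0 called at 30 µg/kg, and the sum over all 14 ran from 6.71 to 10.5 CPM with vehicle and 5.49 to 11.9 CPM at 30 µg/kg. Markers of the proximal tubule, the main resorbing segment, summed to 26115 to 35794 CPM with vehicle and 13261 to 27363 CPM at 30 µg/kg. Of 10 such markers, 5 were called lower and 1 higher. Of the remaining lists at 30 µg/kg, 3 of 5 podocyte, 3 of 6 fibroblast and 4 of 8 tubular injury markers were called higher. Lower calls were 1 of 8 tubular injury, 4 of 8 distal nephron and 1 of 5 fat markers, and 0 of 5 erythroid markers were called either way. Of the 5 fat markers, 4 had positive fold changes, with 0 called higher. The fat sum ran from 85.8 to 204 CPM with vehicle and from 155 to 328 CPM at 30 µg/kg. The erythroid sum ran from 435 to 715 CPM with vehicle and, far wider, from 102 to 1360 CPM at 30 µg/kg. The part of these shifts in the values of the 41 genes was not tested.

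Beyond the 41 genes, 3 further lists gave the rest of the machinery: 49 regulators, 46 replication and repair genes and 62 mitosis genes. At 30 µg/kg, 3 of the 47 regulators tested were called higher and 1 lower, 0 and 1 of 45 replication genes, and 0 and 2 of 57 mitosis genes, against 8.39% higher and 7.55% lower among all genes. Their median log2 fold changes were 0.07, 0.06 and -0.04. Over dose rank, 8 of 47 regulators, 2 of 45 replication genes and 0 of 57 mitosis genes were called higher, against 11% of all genes, and 1 of each list was called lower, against 8.84%.

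Cdkn1a, which encodes the CDK inhibitor p21, rose most clearly. Its CPM were 6.97, 10.8, 8.51, 12.3 and 10.5 with vehicle, 21.0, 36.2, 21.5, 24.3 and 28.8 at 10 µg/kg, and 23.2, 21.7, 50.4, 35.3 and 42.4 at 30 µg/kg. All libraries at 10 and 30 µg/kg lie above all vehicle libraries. The log2 fold change was 1.43 ± 0.23 (SE) at 10 µg/kg (adjusted p = 3.87e-05), where 3.82% of all genes were called higher, and 1.82 ± 0.23 at 30 µg/kg (adjusted p = 4.74e-07). At 3 µg/kg it was 0.86 with an adjusted p of 0.0548. Of its exonic bases 7.68% are shared with another annotated gene. Among the other genes named from these lists, the share is higher for Cdkn1c (30.7%), Ccnd1 (23.4%), Rb1 (14.9%) and Ccnd2 (7.86%). It is lower for the rest.

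Cdkn1b, which encodes the inhibitor p27, rose less, from 54.8 ± 5.22 to 69.5 ± 9.62 CPM at 30 µg/kg (SD, n = 5 each). Its log2 fold change was 0.34 (adjusted p = 0.00602), and the adjusted p was 0.0581 in the stranded column and 0.0635 in a fit of the 10 libraries alone. Myc, a growth-promoting transcription factor, rose from 6.40, 6.74, 5.70, 6.31 and 8.95 CPM with vehicle to 11.7, 9.22, 14.0, 23.8 and 12.9 CPM at 30 µg/kg. Every treated Myc value exceeds every vehicle value (log2 fold change 1.07, adjusted p = 0.00125). Ccnd1, the cyclin of G1, had 103 ± 10.6 CPM with vehicle and 107 ± 28.3 CPM at 30 µg/kg (adjusted p = 0.847). Ccng1, a p53 target, had a log2 fold change of 0.15 at 30 µg/kg (adjusted p = 0.311). It rose by 0.028 per rank in the trend (adjusted p = 0.0412), a call lost when any 1 of 6 libraries was left out, with adjusted p up to 0.0764, and in the stranded column (0.0525).

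Among the other regulators, those that rose over dose rank included Ccnd2, a further cyclin of G1, by 0.079 log2 units per rank (adjusted p = 0.00755) and Rb1, the retinoblastoma protein that restrains E2F, by 0.038 (adjusted p = 0.00469). The 8 calls also held Cdkn1c, a CDK inhibitor (0.047 per rank, adjusted p = 0.0484), and Mdm2, a ligase of p53 (0.027, adjusted p = 0.0414). Both were lost with no filter (0.0545 and 0.0552), without the 2 libraries with adrenal cortex markers (0.0595 and 0.0574) and when any 1 of 6 and 5 libraries was left out, and that of Mdm2 also without the 30 µg/kg group (0.335). E2f5, a repressive E2F, fell at 30 µg/kg from 29.7, 29.8, 32.0, 34.3 and 29.4 CPM to 23.9, 25.3, 23.9, 24.0 and 22.9 CPM. The groups of E2f5 do not overlap (log2 fold change -0.37, adjusted p = 0.00226), but the change was -0.20 with an adjusted p of 0.198 in the stranded column. E2f2, an activating E2F, fell over dose rank by 0.097 log2 units per rank (adjusted p = 0.0230), and the adjusted p was 0.0534 and 0.0574 without replicate 2 or 4 at 30 µg/kg. Without the whole 30 µg/kg group the slope was -0.060 (adjusted p = 0.339).

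Tk1, the thymidine kinase of S phase, fell by 0.56 at 10 µg/kg and by 0.52 at 30 µg/kg on the log2 scale (adjusted p = 0.00401 and 0.00348), and 0.997% of all genes were called lower at 10 µg/kg. It had 12.9, 9.02, 10.4, 10.5 and 9.23 CPM with vehicle and 7.61, 6.05, 7.32, 6.96 and 8.21 CPM at 30 µg/kg, with no overlap. In a fit of these 10 libraries alone the adjusted p at 30 µg/kg was 0.0569. Depdc1b, which is known from cell cycle expression programs, fell from 28.2, 30.4, 26.7, 31.4 and 27.9 CPM with vehicle to 17.8, 15.6, 10.7, 5.56 and 10.3 CPM at 30 µg/kg. Its log2 fold change was -1.27 ± 0.16 (SE, adjusted p = 2.12e-07), with all 5 treated libraries below all vehicle libraries.

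Cdca8, a subunit of the chromosomal passenger complex, was called lower at 30 µg/kg (log2 fold change -1.005, adjusted p = 0.0485). The call was lost when any 1 of 7 libraries was left out, with adjusted p up to 0.134. It was also lost in 4 of the 6 other alternatives, among them the stranded column, where the change was -0.11 (0.877). Nek2, a centrosome kinase, was called higher at 3 µg/kg (log2 fold change 0.76, adjusted p = 0.0203), where 1.03% of all genes were called higher. Nek2 is named as the only call of the 3 lists at that dose, chosen after its values were seen, and it was lost when any 1 of 6 libraries was left out, with adjusted p up to 0.0950. Its adjusted p was 0.0558 with no filter, 0.108 in the stranded column and 0.0748 in the 10 libraries alone. Nek2 was not called at the other doses. Its log2 fold change there was 0.58, 0.61, 0.56 and 0.59 at 0.03, 0.1, 0.3 and 1 µg/kg. It was 0.55 at 10 and 0.29 at 30 µg/kg, and the adjusted p over dose rank was 0.513. All of these fold changes are against the same vehicle libraries. Brca2, which repairs broken DNA, rose over dose rank by 0.084 log2 units per rank (adjusted p = 0.0213), a call lost without the third library at 30 µg/kg (0.0545), in the stranded column (0.0943) and without the 30 µg/kg group (0.241). Timeless, a protein of the replication fork, rose by 0.062 per rank (adjusted p = 0.0467), which was lost when any 1 of 7 libraries was left out, with adjusted p up to 0.145. It was also lost with no filter (0.0650), in the stranded column (0.239) and without the 30 µg/kg group (0.243).

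**Figure D5:**
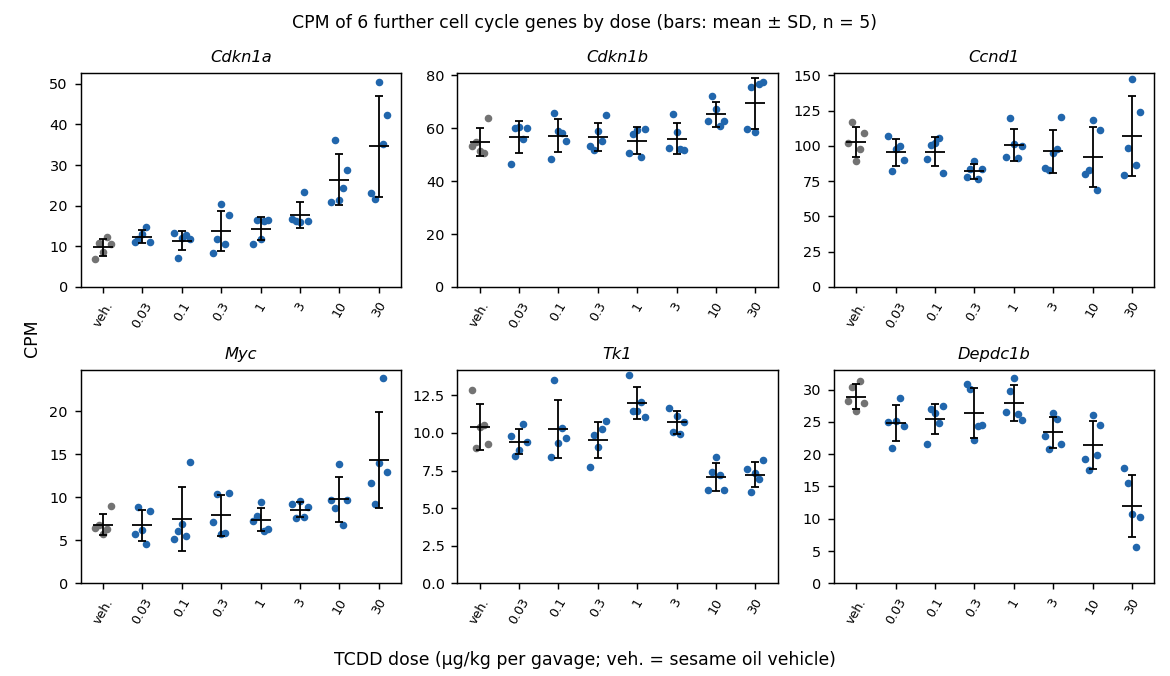
CPM of Cdkn1a, Cdkn1b, Ccnd1, Myc, Tk1 and Depdc1b in every library by TCDD dose in µg/kg, with bars for mean ± SD of 5 libraries and vertical axes from 0. At 10 and 30 µg/kg, Cdkn1a lies above the vehicle range, Depdc1b and Tk1 lie below it, and Ccnd1 overlaps it.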

How the data were processed

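Whole-kidney RNA of 40 mice was sequenced as paired-end libraries. Per the labels' protocols, about 100 mg of frozen tissue was extracted with TRIzol. The values are whole-number counts of reads per gene, deposited by the authors as a STAR-style file with 1 unstranded and 2 stranded columns for every mouse, of which the unstranded was used. The submitters' processing notes list FastQC 0.11.7, Trimmomatic 0.39, STAR 2.7.3a and DESeq2. The annotation and its build are not given in the sources used here. Names, exon lengths and exon overlaps come from GENCODE M21, which named 52083 of the 55359 identifiers, and the 3276 unnamed ones held 0.663% of gene counts. Lines that name no gene (1.41 to 2.66% unmapped, 6.98 to 9.70% multimapping, 5.28 to 7.27% in no feature and 5.40 to 5.98% ambiguous reads) stayed out of library sizes. The reads carry no molecular identifiers, so depth bounds counting error only.

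Groups come from the labels, and replicate numbers follow the order of deposition and pair no libraries. Of 80 replicate pairs, none agreed within sampling noise (chi-square per degree of freedom 7.34 to 87.9), so each library counts as 1 replicate. In R 4.3.3 with edgeR 4.0.16, filterByExpr by group left 17345 genes, TMM factors ran from 0.966 to 1.09, and robust quasi-likelihood F-tests were fitted to all 40 libraries with 8 groups. Each dose was tested against vehicle, with a further fit over dose rank 0 to 7. Benjamini-Hochberg adjustment ran over all genes tested, with calls at an adjusted p under 0.05. The prior count for fold changes was 0.125, and intervals cover 95%. CPM values were computed with the TMM factors. The fits were tested on simulated data with the same spread for every gene. Known changes were placed only in genes above a minimum count, so recovery of changes in scarce genes was not tested.

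Alternatives were DESeq2 1.42.0, RLE scaling, no filter on low counts, 1 of the stranded columns (50.4 to 51.0% of the stranded counts in each library, so no strands are separated and fewer reads are tested), the 10 libraries of each comparison alone, the trend without the 30 µg/kg group, and each library of the 2 groups left out (for the trend, those of vehicle and 30 µg/kg). Leaving out both libraries with adrenal cortex markers over a summed 100 CPM was chosen after seeing the data. The 41 genes, the further lists and the markers were chosen with earlier results of these data known. Library values are given for 12 fixed genes, for called genes of the 41, and for the 2 largest and 2 smallest fold changes at 30 µg/kg. From the further lists, Ccnd1, Cdkn1a, Cdkn1b, Ccng1 and up to 5 called genes per list and direction at 30 µg/kg or over dose rank are named. Lin54, a listed regulator, had no matching name and was not used here.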

Additional observations from a re-analysis of the deposited data

Results flagged for a closer look

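For normally distributed values, Dixon's gap criterion sets a single library apart from the other 4 by chance in about 1 in 20 sets of 5. Counts of scarce genes need not be so distributed, and some genes here were chosen by their own values. The rate is therefore a guide and not a test. Among the 17 genes chosen for full library values, 13 of 136 sets held a single library set apart, against 6.8 at that rate. At 0.03 µg/kg these were Top2a in the fifth library (6.77 CPM, next 3.32), Mcm3 in the first (7.23, next 5.03), Ccnb2 in the second (2.68, next 1.505) and Bub1 in the first (0.922, next 0.262). That first library is 1 of the 2 with adrenal cortex markers. At 0.3 µg/kg they were Mcm3 in the first library (5.14 CPM, next 4.20) and Bub1 in the second (0.745, next 0.309). At 3 µg/kg they were Rrm2 in the fifth library (6.35 CPM, next 4.32), Foxm1 in the third (2.87, next 1.58), Exo1 in the fourth (0.736, next 0.211) and, on the low side, Mcm5 in the first (4.96, next 6.52). Ccne1 stood apart in the fourth library at 10 µg/kg (1.06 CPM, next 0.453), and Ccnb1 in the third at 30 µg/kg (1.90, next 0.566). Mcm3 in the third vehicle library (1.77 CPM, next 5.24) is the only such value in the vehicle group.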

How the results depend on the processing

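The counts of 0 called genes at 0.03 to 10 µg/kg did not move under any alternative run. The median fold changes moved by under 1 SD of the vehicle library medians, a wide limit beside medians near 0, and were negative in the stranded column at 0.1 µg/kg (-0.07) and 10 µg/kg (-0.05). The median slope over dose rank, 0.011, ran from 0.00090 to 0.011 when 1 vehicle or 30 µg/kg library was left out (libraries of other doses were not left out for the trend), with the lowest without replicate 5 at 30 µg/kg, and was -0.0013 in the stranded column. At 30 µg/kg the count of called genes fell from 1 to 0 with no filter on low counts (34307 genes tested) and with only the 10 libraries of both groups, and ran from 0 to 1 when 1 library was left out. In the trend it fell from 1 to 0 with no filter and in the stranded column, and ran from 0 to 3 when 1 library was left out. A count of 1 did not always hold the same gene. Without the third vehicle library Kif23 was called at 30 µg/kg in place of Cenpe. In the trend, Top2a was called in place of Mcm3 without the 30 µg/kg group, Mcm6 without the fifth library at 30 µg/kg, and Mcm3, Top2a and Mcm4 without the fourth. The cause was not tested.

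Signs at 30 µg/kg were followed only for called genes, the fixed genes with library values, Ccnd1 and Ccng1. The signs of the other uncalled genes were not followed. Among the uncalled genes that were followed, the log2 fold changes that changed sign were E2f1 (0.0055) and Ccnb1 (0.24) in the stranded column. With 1 library left out, those that changed sign ran from -0.54 to 0.26 for Ccne1, -0.24 to 0.12 for Ccne2, -0.35 to 0.096 for E2f1, -0.17 to 0.025 for Foxm1, -0.096 to 0.22 for Mcm5, -0.31 to 0.16 for Rrm2, -1.01 to 0.0085 for Ccnb1, -0.0039 to 0.69 for Top2a and -0.091 to 0.15 for Ccnd1. Cdkn1a at 10 and 30 µg/kg and Depdc1b and Myc at 30 µg/kg stayed called under every alternative run. No paired analysis was possible because the labels give no replicate numbers shared between groups. Genes under 1 CPM have intervals so wide that only large changes could be seen at this depth.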
